A study of Homo sapiens with 2 samples.

Results

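The mucins described here were 10 genes, taken as the rows with the symbols MUC1, MUC3A, MUC4, MUC13, MUC15, MUC16, MUC20, MUC21, MUC5AC and MUC5B in the gene table, which listed 27685 genes. The transcript table listed 40 transcripts for them, of 63714 in all. They were taken by name, with earlier results of these data known. Messenger RNA was sequenced from 2 lung cancer cell lines, H2087 and H596, both untreated and both given as lung adenocarcinoma in the labels, grown in RPMI with 10% fetal bovine serum. The parent paper describes RNA-seq of H2087, used to choose highly expressed genes and the variants of histone-modified regions within or closest to them. Its text does not mention H596. Each cell line was represented by 1 library, so a difference between the lines had no replicate error and could not be tested. The intervals given for levels are 95% Wilson intervals of the count as a part of the library, and they cover counting error only.

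Mucins are large glycoproteins of wet epithelia whose protein cores carry dense chains of O-linked sugars on serine and threonine. The secreted, gel-forming mucins polymerise into mucus, and MUC5AC and MUC5B are the main ones of the airway surface. The membrane mucins span the plasma membrane, stand out beyond the other surface proteins, and can shed their outer part and signal through their tails. The 10 genes comprised 8 membrane mucins and those 2 gel-forming mucins.

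The sequence that defines a mucin core is a tandem repeat rich in serine, threonine and proline codons. Its length enters a per-length value below only where the listed transcript holds the repeat. In the GRCh37 (hg19) genome with the GENCODE 44 annotation, a repeat was found in the coding sequence of 6 of the 10 genes. The repeat of MUC4 took 6772 coding bases, or 41.7% of its coding sequence, in about 141 units of 48 bases. That of MUC21 took 76.6% in about 28.9 units of 45 bases, that of MUC20 36% in about 13.7 units of 57 bases, and that of MUC1 23.8% in about 5.65 units of 60 bases. The repeats of MUC16 (468 bases a unit, 8.24% of the coding sequence) and MUC5B (87 bases a unit, 2.48%) took smaller parts. A single stretch was counted for each gene, so any other repeats of a gene are not in these shares. No repeat was found in MUC3A, MUC13, MUC15 or MUC5AC. The listed loci of MUC3A and MUC5AC each hold 50000 bases that are unknown in this genome build, where a repeat could not be sought. Over the longest coding sequence of each gene, serine, threonine and proline made up between 21.2% (MUC5AC) and 51.6% (MUC21) of the codons. The median over 7731 genes on the same chromosomes was 18.8% and the 95th percentile 28.3%, and 9 of the 10 mucins lay above that percentile. MUC5AC did not, and 50000 bases inside its listed locus are unknown bases in this genome build. Its longest annotated coding sequence had 1870 bases, against 17286 for MUC5B, and its share covers those 1870 bases only.

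A unit of the repeat is shown for the 4 genes in which it took the largest part of the coding sequence, since it makes plain what is being counted in these transcripts. Each is the reference sequence 5′ to 3′ on the coding strand, inside a coding exon, with serine and threonine codons in capitals. The number of units in these 2 cell lines was not measured.
MUC1 (chr1:155161711-155161770, minus strand): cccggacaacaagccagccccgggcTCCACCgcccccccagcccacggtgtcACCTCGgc
MUC4 (chr3:195511861-195511908, minus strand): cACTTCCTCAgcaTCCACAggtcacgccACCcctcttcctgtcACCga
MUC20 (chr3:195452060-195452116, plus strand): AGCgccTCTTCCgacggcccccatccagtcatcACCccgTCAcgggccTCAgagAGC
MUC21 (chr6:30954285-30954329, plus strand): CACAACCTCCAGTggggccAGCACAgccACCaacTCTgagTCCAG
Of the whole codons in the unit, serine or threonine accounted for 4 of 19 in MUC1, 7 of 15 in MUC4, 7 of 19 in MUC20 and 9 of 14 in MUC21.

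The libraries held 46961500 (H2087) and 55387847 (H596) estimated read counts over genes. Levels are given as FPKM, fragments per kilobase of exon scaled to the mapped fragments of the library, which corrects for transcript length and library size. Differences are log2(FPKM + 1) in H596 minus H2087, a scale that understates the change of low genes. The 13048 genes whose FPKM averaged 1 or more over both lines are called expressed genes. Their median difference was 0.12, or 0.00 once the libraries were scaled by TMM. All 5 epithelial markers were above an FPKM of 1 in each line, and the 6 blood and endothelial markers summed to 0.198 in H2087 and 0.489 in H596. The 6 stromal markers summed to 4.39 and 10.7, of which the collagen COL1A1 gave 3.89 in H2087 and decorin, DCN, 9.77 in H596. The adenocarcinoma label held less well for H596, where 5 of 6 lung adenocarcinoma markers were below an FPKM of 1 and their sum was 7.87, against 233.8 in H2087, where 2 of the 6 were below 1. LAMP3 went the other way, with 1.13 in H2087 and 7.24 in H596. The 8 squamous markers summed to 41.1 in H2087, 39.1 of which was SOX2, and to 4092 in H596, 3558 of which was the keratin KRT13. These markers moved together with every difference described below, and their part in it was not tested.

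The mucins together were more abundant in H596. Their FPKM summed to 135.7 in H2087 and 306.7 in H596, a ratio of 2.26. As a share of the summed FPKM of all genes this was 0.029% in H2087 and 0.0744% in H596, while as a share of counts it was 0.0525% (interval 0.0518% to 0.0531%) and 0.136% (0.135% to 0.137%). MUC20 accounted for 84.0% of the rise in summed FPKM. Without it the sums were 107.8 and 135.3, a ratio of 1.25. In both lines the total came almost wholly from membrane mucins: MUC1, MUC4 and MUC20 made up 98.6% of it in H2087 and 95.3% in H596, and the gel-forming pair summed to an FPKM of 0.0161 and 0.0119.

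**Figure D1:**
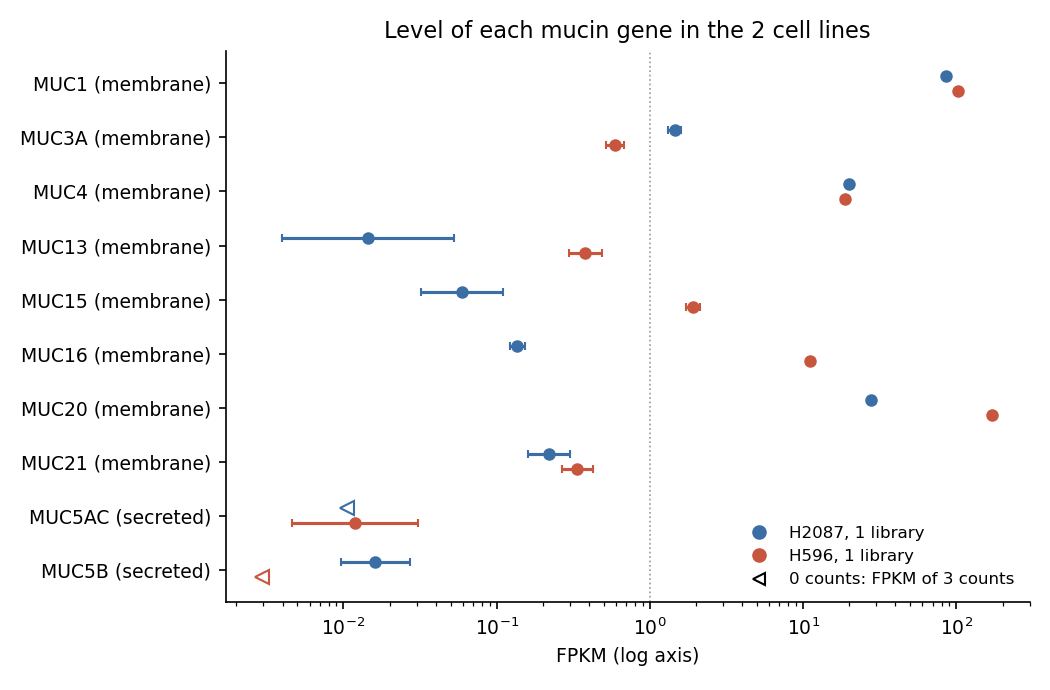
FPKM of each mucin in H2087 (blue) and H596 (red) on a log axis, with the 95% Wilson counting interval of the single library, and open triangles at the FPKM that 3 counts would give where the count was 0. MUC1, MUC4 and MUC20 sat above an FPKM of 10 in both lines, MUC16 rose above it in H596, and the gel-forming mucins lay at or below 0.0161.

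The order of the mucins differed between the lines at the top. In H2087 it ran from MUC1 through MUC20, MUC4, MUC3A, MUC21, MUC16, MUC15, MUC5B and MUC13 to MUC5AC, which had 0 counts. In H596 it ran from MUC20 through MUC1, MUC4, MUC16, MUC15, MUC3A, MUC13, MUC21 and MUC5AC to MUC5B, which had 0 counts. Neighbours in the order whose counting intervals overlapped were MUC5B and MUC13, and MUC13 and MUC5AC, in H2087, and MUC13 and MUC21 in H596. MUC1 held 63.4% of the summed mucin FPKM in H2087 and 33.3% in H596, whereas MUC20 held 20.5% and 55.9%.

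Of the 10 mucins, 5 were expressed genes by this limit. These were MUC1, MUC3A, MUC4, MUC16 and MUC20. MUC16 reached the limit through H596 alone and MUC3A through H2087 alone, so a gap between the lines was built into their choice. The mean of MUC3A, 1.02, lay just inside the limit while that of MUC15, 0.981, lay just outside. A difference of at least 2-fold was seen for 2 of the 5, MUC16 and MUC20, and both were higher in H596. Among the 13048 expressed genes, 4226 (32.4%) were past 2-fold, with 2376 (18.2%) higher in H596 and 1850 (14.2%) lower. That lean depended on the scaling, with 2039 higher and 2136 lower under TMM, 2042 and 2120 after centring on the median difference, and 3590 and 2004 as TPM. With so few members the count is no more than a description.

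**Figure D2:**
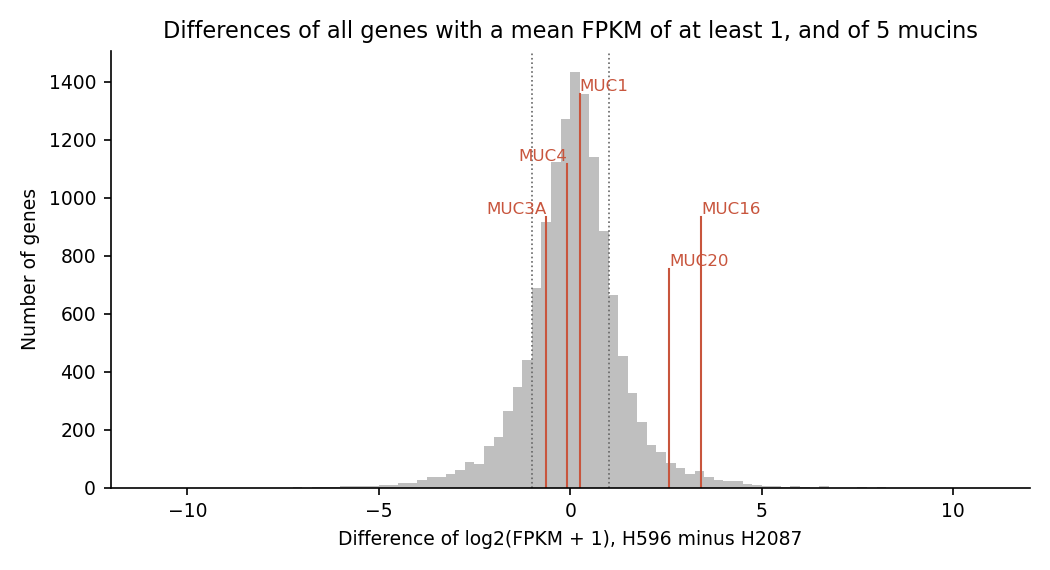
Number of genes by difference of log2(FPKM + 1), H596 minus H2087, for the 13048 expressed genes, with red lines at the 5 mucins among them and dotted lines at a 2-fold difference. MUC3A (-0.62), MUC4 (-0.08) and MUC1 (0.25) lay in the body of the distribution, and MUC20 (2.58) and MUC16 (3.42) in its right tail.

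MUC16, a very large membrane mucin that carries the tumour antigen CA125, showed the widest gap between the lines of the 5 expressed mucins. Its gene lies at chr19:8959520-9092018 on the minus strand, and a single transcript of 43816 bases is listed. It had 287 counts in H2087 and 27727 in H596, or an FPKM of 0.136 (interval 0.122 to 0.153) and 11.2 (11.0 to 11.3). The ratio was 81.7 (interval 72.8 to 92.1). On the log2 scale the difference was 3.42, and 198 of the 13048 genes had a difference at least as high. MUC16 had the most counts of any mucin in H596, and ranked 6298th by FPKM among all genes there. Its transcript is 23.8 times as long as the longest of MUC1. The nearest listed genes outside the family, MBD3L1 and the olfactory receptor gene OR1M1, had 0 counts in both lines.

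MUC20, a membrane mucin known to bind the receptor MET, was the highest mucin of H596. Its gene lies at chr3:195447753-195460424 on the plus strand. It had 2786 counts and an FPKM of 27.8 (26.8 to 28.9) in H2087, and 20432 counts and an FPKM of 171.4 (169.1 to 173.8) in H596. The ratio was 6.16 (5.92 to 6.41) and the log2 difference 2.58, which 404 of the 13048 genes reached. Its rank by FPKM among all genes was 2804 in H2087 and 339 in H596. Of this gene's sequence, 1782 of 6837 annotated exon bases (26.1%) have a copy elsewhere on chromosome 3 with 96.9% identity, in the pseudogene MUC20P1. MUC20P1 had 0 entries of its own among the listed genes and transcripts. How reads from both places were divided is not given in the sources used here, so the part of MUC20P1 in the value was not tested.

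The listed transcripts of MUC20 changed places between the lines. NM_152673 stood at 24.6 FPKM in H2087 against 4.23 in H596, whereas NM_001291833 had 1.06 and 156.4. The former made up 88.3% of the gene in H2087 and 2.47% in H596, and the latter 3.82% and 91.3%. Both are listed with 2078 bases, and together they took 92.1% of the gene's level in H2087 and 93.7% in H596. Of the others, NM_001282506 (2591 bases) had 0.266 and 7.15, and NM_020790 (2135 bases) had 1.93 and 3.58. How reads are split over transcripts with exons in common was estimated by the authors' software, and no interval could be set on it.

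MUC4, whose gene lies beside that of MUC20 at chr3:195473638-195538844 on the minus strand, is a membrane mucin known to bind the receptor ERBB2. Its level was close in the lines. It had 14243 counts and an FPKM of 19.9 (19.6 to 20.2) in H2087, and 16794 counts and 18.7 (18.5 to 19.0) in H596. The log2 difference was -0.08 (interval -0.11 to -0.05) and turned to 0.09 when FPKM was rescaled to TPM, so no direction could be given. Of its 21021 annotated exon bases, 564 (2.68%) have a near-identical copy elsewhere on chromosome 3. MUC4 and MUC20 are neighbours, and their differences were unlike in size.

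The MUC4 transcripts fell into long and short forms. The longest, NM_018406, exceeds the short form NM_004532 by 12708 bases, which is the length of the coding exon that holds the repeat shown above. The long forms NM_018406 (16804 bases) and NM_001322468 (14589 bases) had FPKM values of 13.6 and 4.11 in H2087, against 11.7 and 6.67 in H596. Together they made up 88.9% of the gene in H2087 and 98.2% in H596. The short forms NM_138297 and NM_004532 summed to 2.21 in H2087, against 0.329 in H596.

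MUC1, the most widely expressed membrane mucin of simple epithelia, was high in both lines. Its gene lies at chr1:155158300-155162706 on the minus strand. It had 6860 counts and an FPKM of 86.0 (84.0 to 88.1) in H2087, rank 847, and 9748 counts and an FPKM of 102.2 (100.1 to 104.2) in H596, rank 619. The ratio was 1.19 (1.15 to 1.22) and the log2 difference 0.25, beside a median of 0.12 over expressed genes. Scaled by TMM it was 0.11, and for the highest single transcript of each line it was -0.017, so its sign depended on the measure. Of its 20 listed transcripts, the longest pair, NM_001204286 (1838 bases) and NM_001204285 (1811 bases), took 77.1% of the level in H2087 and 79.5% in H596. The former had 41.8 and 39.9, and the latter, which is 27 bases shorter, 24.6 and 41.3. How reads were divided between these forms was estimated by the authors' software, and no interval could be set on it. The 18 other transcripts, of 836 to 1232 bases, each reached at most 2.83 in H2087 and 3.24 in H596.

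**Figure D3:**
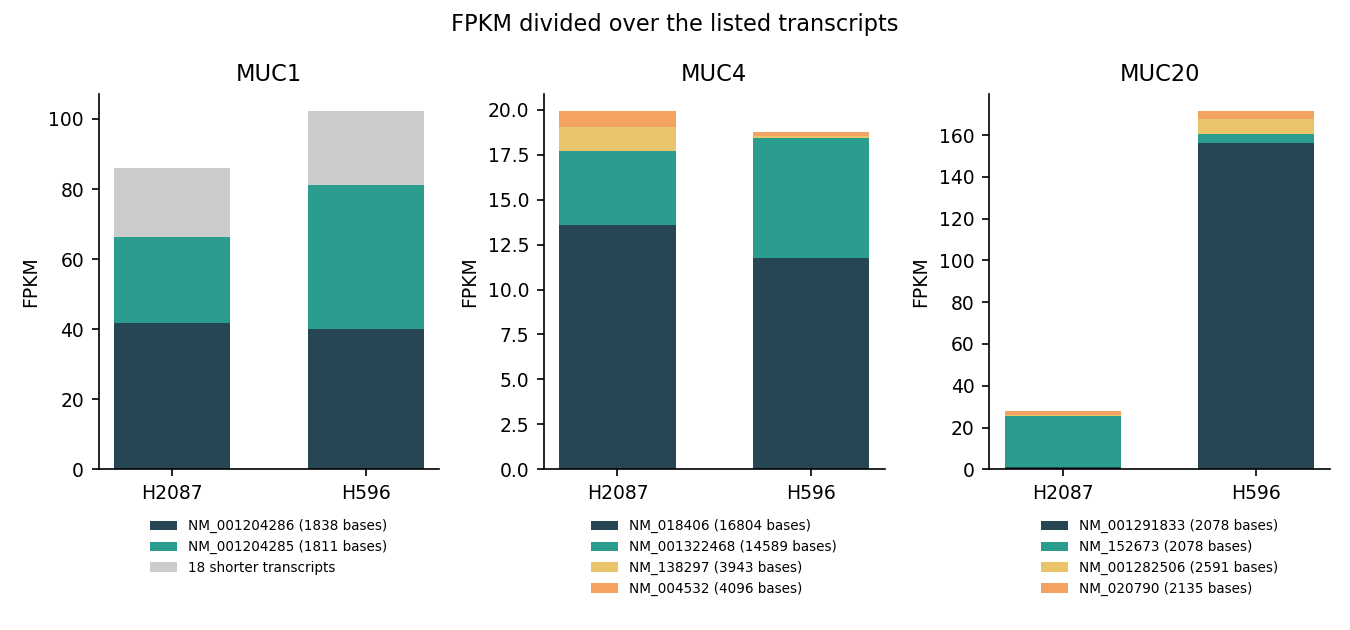
FPKM of MUC1, MUC4 and MUC20 in each cell line, stacked by listed transcript, with transcript lengths in the legends and a separate axis for each gene. NM_152673 made up most of MUC20 in H2087 and NM_001291833 most of it in H596. The leading form of MUC4 was the same in both lines. The leading pair of MUC1 was also the same, but NM_001204286 was the higher of the pair in H2087 and NM_001204285 in H596.

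MUC3A, a membrane mucin best known from the intestine, was the clearest mucin in the other direction. Its gene lies at chr7:100547052-100611619 on the plus strand. It had 406 counts and an FPKM of 1.45 (1.31 to 1.60) in H2087, and 197 counts and 0.593 (0.516 to 0.682) in H596. The level was 2.44 times (2.06 to 2.91) higher in H2087. On the log2(FPKM + 1) scale the difference was -0.62, short of 2-fold, and with a pseudocount of 0.1 it was -1.16, past it. Of its listed locus, 50000 bases are unknown in the genome build, so reads from such parts could not be placed.

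MUC15, a membrane mucin, was below the limit on the mean and differed widely. The gene lies at chr11:26580579-26593815 on the minus strand inside the listed locus of ANO3. It had 10 counts and an FPKM of 0.0593 (0.0322 to 0.109) in H2087, and 365 counts and 1.90 (1.72 to 2.11) in H596, a ratio of 32.1 (17.2 to 67.5). ANO3 itself had 0 and 36 counts. The main transcript of MUC15, NM_001135091, made up 76.3% of its FPKM in H596 and was the single form with counts in H2087.

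MUC13, a membrane mucin of the gut and airway, was near the limit of detection in H2087. It had 2 counts there and 62 in H596, or an FPKM of 0.0145 (0.00398 to 0.0529) and 0.379 (0.296 to 0.486). The ratio was 26.1, with an interval of 6.93 to 220.4 that takes in the whole interval of MUC15. The gene lies at chr3:124624289-124653595 on the minus strand between ITGB5 and HEG1.

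MUC21, a membrane mucin of squamous and airway epithelium, was low in both lines. It had 39 counts and an FPKM of 0.219 (0.160 to 0.299) in H2087 and 70 counts and 0.335 (0.265 to 0.423) in H596. The ratio was 1.53 (1.02 to 2.33), and the intervals of the levels overlapped. Of its 4 listed transcripts, NM_001322371 held all of the counts in H2087 and 97.4% of the FPKM in H596. The gene lies at chr6:30951485-30957679 on the plus strand.

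The gel-forming mucins were close to 0 in both lines. MUC5AC, the main mucin of airway goblet cells, lies at chr11:1151580-1222366 and had 0 counts in H2087 and 4 in H596, an FPKM of 0.0119 (0.00462 to 0.0306). A count of 0 allows an FPKM of up to 0.0106 in H2087, taken as 3 counts, so a difference was not detectable at this depth. Of its listed locus, 50000 bases are unknown in the genome build, so reads from such parts could not be placed. MUC5B, the mucin of submucosal glands, lies at chr11:1244295-1283406 and had 14 counts in H2087, an FPKM of 0.0161 (0.00962 to 0.0271), and 0 in H596. Set against the limit of 3 counts, its level was at least 5.47-fold lower in H596, a bound that leaves out the counting error of the 14 counts. Neither reached a level at which the transcript could be described further.

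Other genes of the mucin family were also low. MUC2, MUC6, MUC7, MUC12, MUC17, MUC19, MUC22 and MUCL1 had from 0 to 9 counts in either library, and DPCR1 had 7 in H2087 and 27 in H596. In the list of 14 other mucin and mucin-like genes, 4 were expressed genes. MCAM, a melanoma adhesion molecule also called MUC18, was 24.4 in H2087 and 0.279 in H596. It was the 1 of these 4 that passed 2-fold, beside 32.4% of all expressed genes. MCAM reached the limit through H2087 alone, so a gap was built into its choice. CD164, a sialomucin of lysosomes and the cell surface, was 64.6 and 62.3. PARM1 (2.08 and 1.62) and OVGP1 (1.48 and 0.909), a secreted oviduct glycoprotein, did not pass 2-fold.

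The genes nearest to the mucins gave a mixed picture. TRIM46, 852 bases from MUC1, stood at 2.69 FPKM in H2087 and 0.369 in H596, a difference of -1.43, while MUC1 was at 0.25. LINC00969, on the far side of MUC20 from MUC4, had 1.89 and 4.80. ITGB5, an integrin subunit gene 18.1 kb from MUC13, had 28.6 and 7.70, and HEG1 had 2.79 and 3.53. TOLLIP, an adaptor of Toll-like receptor signalling 12.2 kb beyond MUC5B, had 11.7 and 16.1. The nearest genes on the other sides (MIR92B, ACHE, LOC102724094, LINC01983, LOC105376599, SLC5A12, HCG21, HCG22, LOC101927503 and MIR6744) were below an FPKM of 1 in both lines.

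Over the 20 nearest expressed genes, 10 on each side, the middle difference was 0.49 around MUC16, 0.42 around MUC20 and MUC4, 0.04 around MUC1, 0.19 around MUC15 and -0.64 around MUC3A. Of those around MUC16, 1 was at least 2-fold higher and 1 at least 2-fold lower in H596. Around MUC20 and MUC4, which share the same neighbours, 5 were higher and 1 lower, beside 18.2% and 14.2% of all expressed genes. Around MUC3A 0 were higher and 7 lower, and around MUC21, which differed little itself, 8 were higher and 3 lower, with the highest middle difference of the mucins, 0.74.

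**Figure D4:**
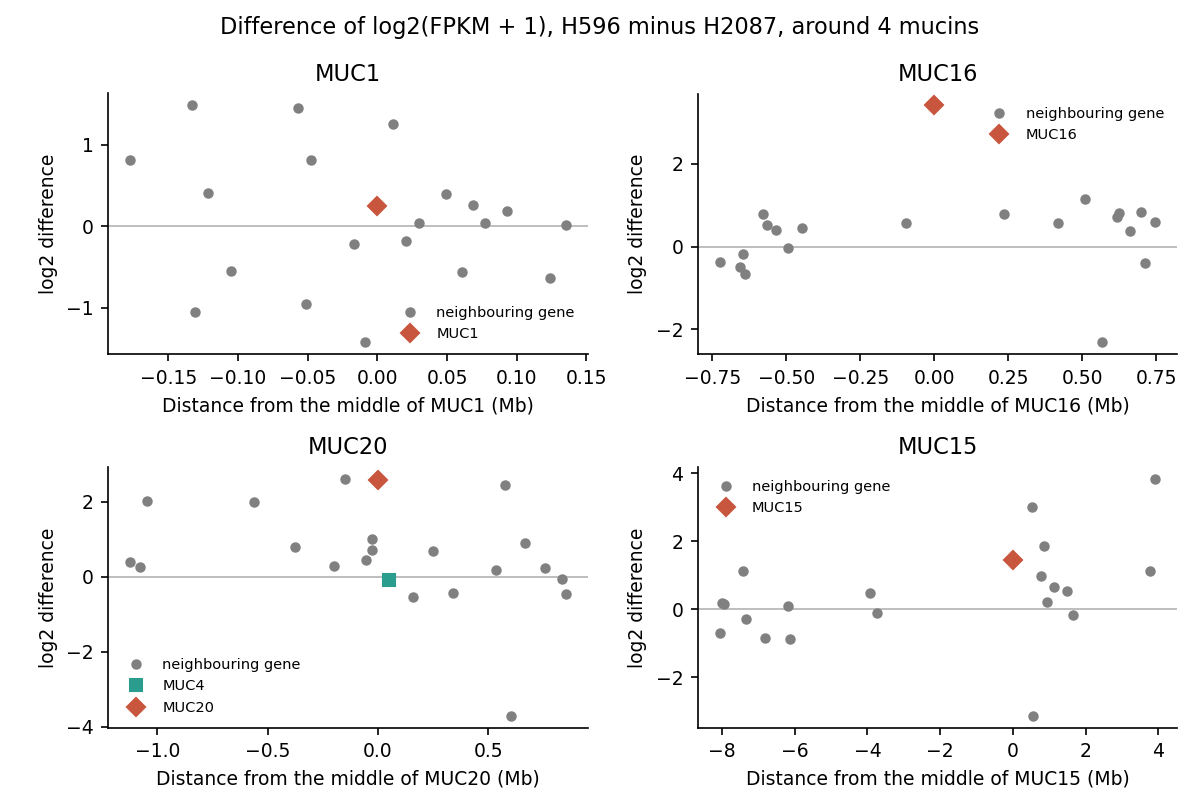
Difference of log2(FPKM + 1), H596 minus H2087, of the 20 nearest expressed genes (grey) by distance in Mb from MUC1, MUC16, MUC20 and MUC15 (red diamonds), with MUC4 as a green square in the panel of MUC20. MUC16 stood at 3.42 above all 20 of its neighbours, whereas MUC20 at 2.58 lay within the range of its neighbours.

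Mucin cores are sugared in the Golgi by enzymes that extend and cap the O-glycans. Of 16 such genes, 14 were expressed, of which 6 were at least 2-fold higher in H596, 2 lower and 6 neither, beside 18.2% higher and 14.2% lower among all expressed genes. The median difference was 0.63 beside 0.12. ST6GALNAC2, a sialyltransferase, went from 0.831 FPKM in H2087 to 41.8 in H596. ST3GAL1, the sialyltransferase that caps the core 1 structure, had 2.58 and 38.1. GCNT3, which makes branched cores, had 2.13 and 14.1. FUT2, the secretor fucosyltransferase, went the other way, with 2.89 and 0.0626. The second gene that was lower, ST6GALNAC4 (12.1 and 5.22), is named here after its values were seen. ST6GALNAC2 reached the limit through H596 alone and FUT2 through H2087 alone. A gap was thus built into their choice, and the counts and the median are a description.

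Among 16 known regulators of mucin genes, 13 were expressed, with 3 higher and 5 lower in H596, beside 18.2% and 14.2% of all expressed genes, and a median difference of 0.29. NKX2-1, the lung lineage factor, which is also in the list of lung adenocarcinoma markers, stood at 110.0 FPKM in H2087 against 0.508 in H596. FOXA2, a factor of lung and gut epithelium, had 30.5 and 0.116, and CREB3L1, a factor of secretory cells, had 6.39 and 0.0844. EHF, an epithelial ETS factor, was higher in H596, with 6.93 and 62.1. The other genes past 2-fold, named after their values were seen, were KLF5 (15.8 and 112.8) and GATA6 (1.03 and 5.53), which were higher, and SOX9 (7.78 and 0.408) and SPDEF (2.86 and 0.405), which were lower. All 5 genes that were lower reached the limit through H2087 alone. A gap was thus built into their choice, and the count and the median are a description.

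Genes for the folding, packaging and co-secretion of mucus had the highest median difference of the 5 related lists. Of 20 genes, 10 were expressed, and 9 of these were at least 2-fold higher in H596 and 0 lower, beside 18.2% and 14.2% of all expressed genes. Their median difference was 2.54 beside 0.12. SCGB1A1, the club cell secretory protein, had 0 counts in H2087 and 413 in H596, at least 116.3-fold higher. AGR3, of the protein disulfide isomerase family, had 0 and 666 counts, at least 187.5-fold higher. PIGR, the transporter of polymeric immunoglobulin, had an FPKM of 0.495 and 21.5, and CLCA2, a regulator of chloride currents, had 0.0592 and 10.3. The other 10 genes were below the limit. Of the trefoil factor genes, named after their values were seen, TFF1 and TFF2 had 0 counts in both lines and TFF3 had 8 in H2087 and 0 in H596. Of the 10 genes, 5 (SCGB1A1, AGR3, PIGR, CLCA2 and CLCA4) reached the limit through H596 alone. A gap was built in for these, so the count and the median are a description. The remaining expressed genes, named after their values were seen, differed by 0.17 (BPIFB1), 1.40 (SLPI), 1.57 (AGR2), 1.94 (SLC12A2) and 2.33 (ZG16B).

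All 15 partners and sheddases of membrane mucins passed the limit on the mean, MSLN through H596 alone. Of these, 6 were higher in H596, 2 lower and 7 neither, beside 18.2% and 14.2% of expressed genes, with a median difference of 0.09. MSLN, mesothelin, the surface protein that binds MUC16, had 3 counts and an FPKM of 0.0253 in H2087, and 12287 counts and 100.8 in H596. The ratio was 3984 (interval 1363 to 19323). EGFR, a receptor that forms complexes with MUC1, had 37.8 and 265.3. MMP14, a membrane protease that can shed MUC1, had 7.44 and 48.4, and the kinase SRC, which phosphorylates the MUC1 tail, had 10.4 and 39.4. Those lower in H596, named after their values were seen, were the receptors MET (121.8 and 36.3) and ERBB3 (28.8 and 12.2).

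**Figure D5:**
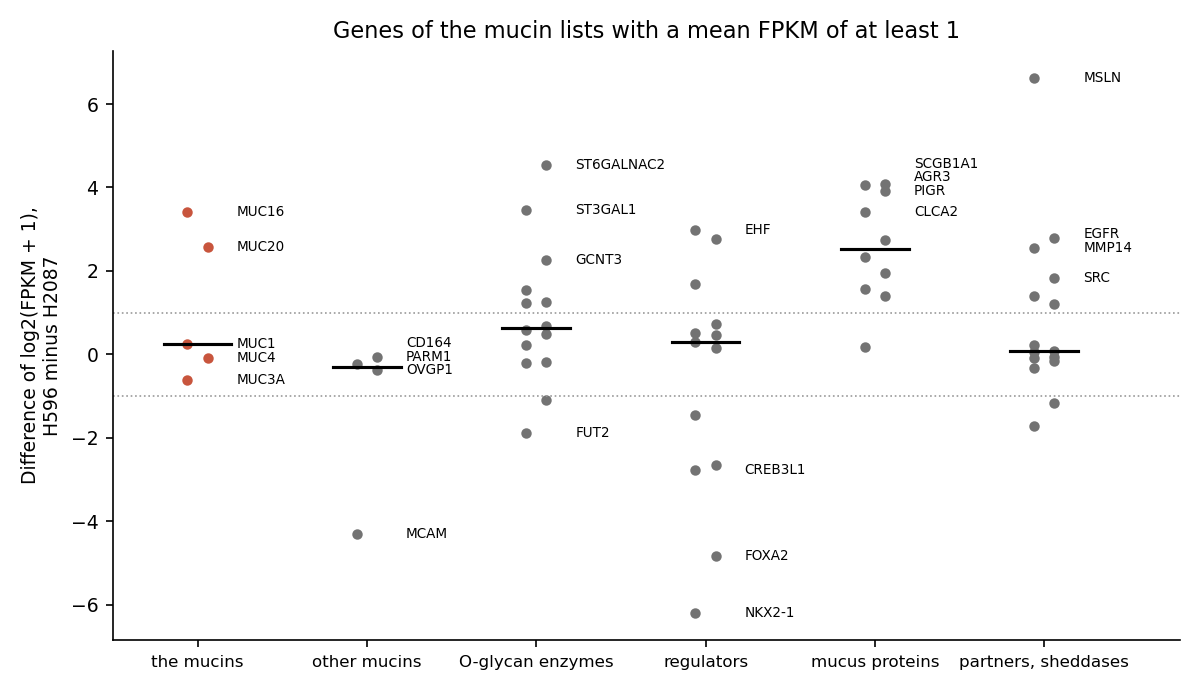
Difference of log2(FPKM + 1), H596 minus H2087, for the 5 mucins (red) and the expressed genes of 5 related lists (grey), with black bars at the medians and dotted lines at a 2-fold difference. The mucus proteins lay highest, with a median of 2.54 that takes in genes expressed through H596 alone. The regulators ran from NKX2-1 at -6.20 to EHF at 2.99.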

How the data were processed

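RNA of 1 library each of H2087 and H596 was isolated with TRIzol and sequenced on a HiSeq4000. Per the labels, the submitters' notes name bcl2fastq 1.8.4, Trimmomatic, HISAT2 2.0.5 and StringTie 1.3.3b, with the genome hg19. The authors deposited FPKM values and estimated counts, listed as whole numbers, for genes and for transcripts. The rule by which multi-mapped reads were counted is not given in the sources used here. No column held a comparison, and 0 columns of per-sample values were left without a sample. The deposited values were used unchanged. A difference is the log2 of FPKM plus a pseudocount of 1. Genes whose FPKM averaged 1 or more were compared, and a 2-fold difference was counted. A count of 0 was given a limit of 3 counts. Intervals were computed with scipy 1.17.1 and cover counting error only. They were Wilson intervals for levels and exact conditional binomial (Clopper-Pearson) intervals for ratios. For log2 differences, the Wilson limits of both lines were combined on the log2(FPKM + 1) scale. TMM factors came from edgeR 4.0.16. Repeats were sought in GRCh37 coding sequence of GENCODE 44 as stretches of at least 3 units of 12 to 600 bases. Each window of at least 150 bases had to be at least 75% identical to itself when shifted by a unit. A whole stretch could fall below that, as the stretch of MUC1 did (74.2%). For each gene the shortest unit whose stretch reached 50% of the longest stretch was kept. Copies at 90% identity or more were sought with minimap2 2.31 on each gene's own chromosome. The 2-fold call and the intervals were tested on simulated counts. The other steps, among them the repeat and copy searches, were not. The named genes were the 10 mucins, the nearest gene outside the family on each side, and up to 4 genes a list with the largest difference. Members and lists were chosen with earlier results of these data known. With 1 library per line no test was made.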

Additional observations from a re-analysis of the deposited data

How the results depend on the processing

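The count of mucins at least 2-fold different stayed within 1.5 times of 2 under 7 of the 8 other settings tried. It was 3 with a pseudocount of 0.1 (MUC3A added, lower in H596) and 3 as TPM or with no filter on low values (MUC15 added, higher in H596). It was 1, MUC20, when a mean FPKM of at least 10 was asked for, since MUC16 then left the comparison. Over all genes that filter gave 1986 in place of 4226, and a 4-fold threshold gave 1322, both fewer by construction. The mucin share of the library was 0.0525% in H2087 and 0.136% in H596 as a share of counts, which weights long genes such as MUC16 and MUC4 more. TPM moved the median difference of the genes compared to 0.288, and TMM to -0.00283. Of 40 differences of single mucins under another setting, 27 left the counting interval and 2 changed sign: MUC4 was 0.094 as TPM, and MUC1 was -0.017 for the highest single transcript. MUC16 ranged from 3.30 to 5.57 and MUC20 from 2.45 to 2.78. The direction was the same in each. No paired analysis was possible because H2087 and H596 had 1 library apiece, and leaving a library out would end the comparison. Depth limits MUC5AC and MUC5B in both lines and MUC13 and MUC15 in H2087, each with 14 counts or fewer.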
